A study of Mus musculus with 8 samples.

Results

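The genes described here are 9 transcripts of the goblet cell, the mucus-producing cell of the gut epithelium: Muc2, Tff3, Clca1, Fcgbp, Zg16, Agr2, Spdef, Spink4 and Retnlb. They were chosen by name, and all 9 were found among the 35199 genes of the deposited count table. The libraries were made from ZSgreen-positive, EPC-high live cells sorted from the small intestine of Dclk1-DTR-ZSgreen mice, that is, from a tuft cell gate, so the goblet genes are read here in a population selected for another lineage. Each of the 8 libraries came from 1 mouse. The reporter sits on a bacterial artificial chromosome in which the Dclk1 gene drives the diphtheria toxin receptor and ZSgreen, and all mice of both groups carried it on a C57BL/6J background.

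Osmotic pumps gave 4 mice scopolamine, a nonselective blocker of muscarinic acetylcholine receptors, in a daily dose of 0.5 mg per kg, and the 4 sham mice received sodium chloride in the same way. Pumps were implanted at 8 to 10 weeks of age, and cells were taken on day 7. The comparison asks how goblet transcripts in the sorted population differed between blockade and sham. From 3000 cells (scopolamine replicate 1 and sham replicate 1) or 4000 cells (all other libraries), cDNA was made by amplification. The RNA input was 1000 pg with 10 cycles for 6 libraries and 200 pg with 15 cycles for sham replicates 1 and 3. Input was therefore unequal between the groups, and the goblet genes and the marker lists are also described below for the libraries made from 1000 pg. Total counts ran from 14343362 to 20857433 with scopolamine and from 25769940 to 41428916 in sham, so every sham library was deeper. The mouse IDs start with M for scopolamine replicates 1, 2 and 3 and sham replicate 1, and with N for the others, a letter whose meaning is not given in the sources used here.

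Goblet cells build the mucus layer in a chain of steps. The transcription factor SPDEF drives their maturation, the chaperone AGR2 folds the mucin in the endoplasmic reticulum, and MUC2, the gel-forming mucin, is packed into granules and released together with CLCA1, FCGBP, ZG16, TFF3 and SPINK4. Acetylcholine acting on muscarinic receptors is a known trigger of goblet cell secretion. Tuft cells are chemosensory cells that arise in the same crypts and are not mucus producers.

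All 9 genes are protein-coding in GENCODE M21 on GRCm38. Muc2 lies on chromosome 7 from 141690340 to 141754693 (plus strand), Fcgbp on chromosome 7 from 28071236 to 28120862 (plus) and Zg16 on chromosome 7 from 127050156 to 127087328 (minus). Tff3 lies on chromosome 17 from 31125306 to 31129646 (minus), Spdef on chromosome 17 from 27714352 to 27728955 (minus) and Clca1 on chromosome 3 from 145003817 to 145032776 (minus). Agr2 lies on chromosome 12 from 35992907 to 36004087 (plus), Spink4 on chromosome 4 from 40920052 to 40931395 (plus) and Retnlb on chromosome 16 from 48816856 to 48818892 (plus). Counts cover whole genes, exons of all annotated transcripts included. The span of Zg16 overlaps those of the opposite-strand genes Gm44939 and Gm22747, neither of which is in the count table. Overlap of exons was not examined, and whether strand was used in counting is not given in the sources used here. Whether reads from these genes entered the Zg16 counts is therefore not known. The other 8 genes overlap no annotated gene.

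RefSeq promoter sequence was given for 4 of the 9 genes. The 250 bases before the RefSeq start are printed for Muc2 and Fcgbp, which are both large secreted mucus proteins and varied together across libraries, and for Spdef, whose level followed neither of them. All are read on the gene's own strand on GRCm38.p6: Muc2 at chr7:141690090-141690339 (plus), Fcgbp at chr7:28070986-28071235 (plus) and Spdef at chr17:27728952-27729201 (minus). Capitals mark matches, on either strand, to the E-box CAGCTG and to TATAAA.
Muc2: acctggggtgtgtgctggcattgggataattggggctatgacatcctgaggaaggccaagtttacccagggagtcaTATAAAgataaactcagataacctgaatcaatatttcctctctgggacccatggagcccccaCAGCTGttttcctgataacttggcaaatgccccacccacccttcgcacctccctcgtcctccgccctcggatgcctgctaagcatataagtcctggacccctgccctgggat
Fcgbp: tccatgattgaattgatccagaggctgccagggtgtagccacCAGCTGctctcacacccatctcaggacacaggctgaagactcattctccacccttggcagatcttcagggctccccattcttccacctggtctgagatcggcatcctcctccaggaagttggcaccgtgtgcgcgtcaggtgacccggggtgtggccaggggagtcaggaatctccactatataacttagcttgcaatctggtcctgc
Spdef: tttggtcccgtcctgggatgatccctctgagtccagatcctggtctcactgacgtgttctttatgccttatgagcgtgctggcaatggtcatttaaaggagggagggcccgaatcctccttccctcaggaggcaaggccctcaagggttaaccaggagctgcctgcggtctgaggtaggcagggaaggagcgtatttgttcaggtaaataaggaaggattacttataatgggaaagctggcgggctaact

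CAGCTG was present in the windows of Muc2 and Fcgbp, 2 of the 4 genes with a promoter, and in 13.0% of 32851 promoter windows of the same length. TATAAA was present in Muc2 and in 12.4% of all windows. The ETS core CCGGAA (12.0% of all windows), its variant CCGGAT (4.94%) and the forkhead motif TGTTTAC (3.17%) were not found in the 4 windows. A match is a run of letters and not a shown binding site.

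The goblet genes made up a small and uneven part of each library. Their summed level, in CPM (counts scaled to library size by TMM factors), was 3544, 2124, 683 and 1112 in scopolamine replicates 1 to 4 and 1378, 353, 1181 and 355 in sham replicates 1 to 4. The 2 lowest libraries were sham replicates 2 and 4, both made from 1000 pg, while both 200 pg sham libraries lay within the range of the scopolamine group. The scopolamine mean was 1866 ± 1271 CPM (SD, n = 4) and the sham mean 817 ± 540 (SD, n = 4), a difference of 1.203 in mean log2 CPM, close to the pooled SD of 1.06. In these bulk libraries a change in the number of goblet cells that entered the gate and a change in goblet RNA per cell cannot be told apart. For scale, 12 tuft cell markers (Dclk1, Trpm5, Pou2f3 and others) summed to between 14213 and 24794 CPM, so the gate held tuft cell RNA in every library.

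Across all genes, edgeR's quasi-likelihood test (Benjamini-Hochberg adjusted p under 0.1) called 0 of 12849 genes past its expression filter, a background of 0%, and none of the 8 goblet genes past that filter. Retnlb did not pass it. At an unadjusted p under 0.05, 1 of the 8 goblet genes, Zg16, was higher with scopolamine, against 3.33% of all genes tested. DESeq2 called 193 of 14307 genes, or 1.35%, and 0 of the 7 goblet genes to which it gave an adjusted p. At a DESeq2 unadjusted p under 0.05, 1 goblet gene was higher, as were 915 genes across the table, those without an adjusted p included. Of the 8 genes, 7 had a fitted log2 fold change above 0 and 1 below. Their median was 0.94, beside -0.01 over all genes tested. Every scopolamine library lay above every sham library for 0 of the 8, against 1.92% of all genes.

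**Figure D1:**
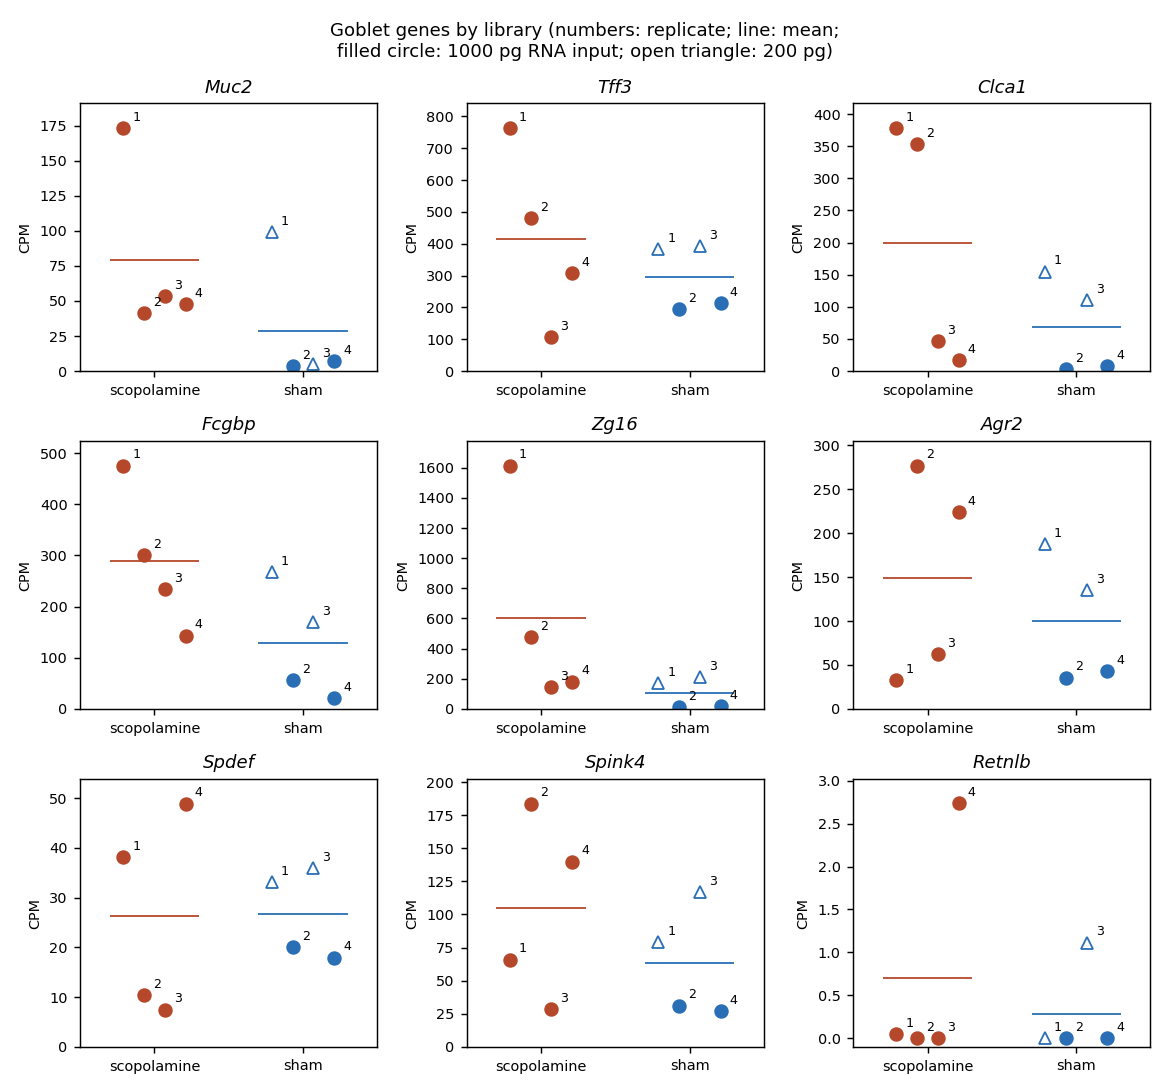
Level of each of the 9 goblet genes (y axis, CPM, linear, each panel with its own scale) in the 4 scopolamine and 4 sham libraries. Filled circles are libraries made from 1000 pg of RNA, open triangles those made from 200 pg, numbers are replicates and lines are group means. Sham replicates 2 and 4 sit at or near the bottom of the sham group in all panels, and the groups overlap in each.

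Muc2, the mucin that forms the intestinal gel, was at 174, 41.3, 53.6 and 48.0 CPM in scopolamine replicates 1 to 4 and at 99.2, 3.62, 5.0 and 7.07 CPM in sham replicates 1 to 4. Sham replicate 1 lay above 3 of the scopolamine libraries, and the other 3 sham libraries lay below them all. The log2 fold change was 1.47 (standard error 1.0, edgeR adjusted p = 0.851, exact permutation test over 70 assignments, two-sided, p = 0.114). The smallest p that 4 against 4 allow in that test is 0.0286. The lowest Muc2 value rests on 149 counts, and sampling of few molecules before amplification is not covered by any error given here. Single libraries moved the fold: it was 3.90 without sham replicate 1, then above that of Zg16 (2.92), and 0.73 without scopolamine replicate 1. DESeq2 gave Muc2 no adjusted p over the 8 libraries.

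Fcgbp, a large mucus protein bound to MUC2, was at 476, 301, 235 and 143 CPM with scopolamine and at 267, 55.7, 170 and 21.6 CPM in sham. The scopolamine libraries lay above sham replicates 2 and 4, with the 200 pg sham libraries among them. Its fitted log2 fold change was 1.17 (standard error 0.64, edgeR adjusted p = 0.815, exact permutation p = 0.171), and it was 1.82 without sham replicate 1.

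Clca1, a secreted protease that processes mucus, was at 379, 353, 46.2 and 17.2 CPM with scopolamine and at 155, 2.50, 111 and 7.46 CPM in sham. It varied more widely than Fcgbp within both groups, and the highest library was 151 times the lowest. The log2 fold change was 1.53 (standard error 1.20, edgeR adjusted p = 0.873, exact permutation p = 0.314), and it was 1.01 without scopolamine replicate 1 and 2.31 without sham replicate 1. Within the M mice, Clca1 was 259 CPM with scopolamine (3 libraries) and 155 in the 1 sham library, and within the N mice it was 17.2 in the 1 scopolamine library and 2.50, 111 and 7.46 in the 3 sham libraries, of which 2 lay below it. The difference in mean log2 CPM was 0.25 within M and 0.42 within N, higher with scopolamine in both. The mean CPM, in contrast, was lower with scopolamine within N, at 17.2 against 40.2 in sham.

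Zg16, a lectin-like granule protein that binds bacterial peptidoglycan, was at 1614, 478, 144 and 181 CPM with scopolamine and at 174, 10.5, 214 and 17.0 CPM in sham. Scopolamine replicate 1 held the highest value, more than 3 times the next, and the remaining scopolamine libraries overlapped the 200 pg sham libraries. The log2 fold change was 2.54 (standard error 1.03, edgeR p = 0.0321, adjusted p = 0.812, exact permutation p = 0.143). It was the largest of the 8 over all libraries, and it was 1.36 without scopolamine replicate 1. Without that library, sham replicate 2 or sham replicate 4, Zg16 was no longer at an unadjusted p under 0.05, since 0 of the 8 goblet genes were.

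Tff3, the trefoil peptide co-secreted with mucin, was at over 100 CPM in every library. It was at 765, 480, 106 and 308 CPM with scopolamine and at 383, 193, 393 and 214 CPM in sham. The lowest value was in a scopolamine library, replicate 3, and the sham libraries lay inside the scopolamine range. For Tff3 the log2 fold change was 0.49 (standard error 0.48, edgeR adjusted p = 0.898, exact permutation p = 0.80), and it was 0.0073 without scopolamine replicate 1.

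Spink4, a small secreted peptide with a Kazal-type inhibitor domain, was at 65.9, 184, 28.6 and 140 CPM with scopolamine and at 79.0, 31.2, 117 and 26.7 CPM in sham. Its order among the scopolamine libraries was not that of Muc2 or Zg16, since replicates 2 and 4 were high and replicate 1 was not. This gave a log2 fold change of 0.72 (standard error 0.59, edgeR adjusted p = 0.878, exact permutation p = 0.429), with 0.29 when scopolamine replicate 2 was left out and 1.196 when sham replicate 3 was.

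Agr2, the disulfide isomerase needed to fold MUC2, was at 33.2, 277, 62.7 and 224 CPM with scopolamine and at 187, 35.6, 135 and 42.8 CPM in sham. Scopolamine replicate 1, which held the most Muc2 and Zg16, held the least Agr2 of all 8 libraries. The log2 fold change was 0.58 (standard error 0.69, edgeR adjusted p = 0.915, exact permutation p = 0.600). It was 0.08 without scopolamine replicate 2 and 1.06 without sham replicate 1.

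Spdef, the transcription factor of goblet and Paneth cell maturation, was at 38.1, 10.4, 7.48 and 48.9 CPM with scopolamine and at 33.1, 20.0, 35.9 and 17.9 CPM in sham. The 4 scopolamine libraries spanned the whole sham range, with 2 below it and 2 above it. Fitted over all libraries, it differed by -0.03 on the log2 scale (standard error 0.56, edgeR adjusted p = 0.996, exact permutation p = 0.629).

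Retnlb, which encodes the antibacterial resistin-like protein RELMβ, was near the detection floor. It had 58 counts in scopolamine replicate 4 (2.74 CPM), 45 in sham replicate 3 (1.11 CPM), 1 in scopolamine replicate 1 and 0 in the other 5 libraries. A count of 0 allows up to 3 counts, which is 0.0729 to 0.212 CPM across the 8 libraries, for counting error only. No group difference was detectable at this depth: without a filter, edgeR gave a log2 fold change of 1.28 (standard error 2.13, adjusted p = 0.897). Both 1000 pg sham libraries were at 0, so no fold is given for the 1000 pg libraries, where edgeR without a filter gave an unadjusted p of 0.0378 and an adjusted p of 0.585.

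The sham libraries differed by RNA input. Both 200 pg sham libraries lay above both 1000 pg sham libraries for 7 of the 8 goblet genes past the filter (all but Muc2), against 17.0% of all genes. The ratio of the 200 pg to the 1000 pg mean was 26.6 for Clca1, 14.1 for Zg16, 5.65 for Fcgbp, 4.11 for Agr2, 3.38 for Spink4, 1.90 for Tff3 and 1.82 for Spdef. Muc2 stood apart, at 99.2 CPM in one 200 pg library and at 5.0 CPM in the other. With 2 libraries of each input, these are values and were not tested, and input in sham cannot be told apart from the mice themselves.

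Among the 6 libraries made from 1000 pg (4 scopolamine, 2 sham), the fitted difference was larger than over all 8 libraries for each of the 8 genes. This follows from the sham values given above and is no separate result. For each of the 8 genes, the sham libraries left out had a higher mean CPM than the 2 kept. How many of all genes had a larger difference here was not counted. Both sham libraries here came from N mice and 3 of the 4 scopolamine libraries from M mice, so in this subset treatment and the ID letter can hardly be told apart. All 4 scopolamine libraries lay above both sham libraries for 4 of the 8 goblet genes, namely Muc2, Clca1, Fcgbp and Zg16, against 9.07% of all genes. In this edgeR fit the log2 fold change was 5.43 for Zg16 (standard error 1.15, adjusted p = 0.264), 5.29 for Clca1 (1.40, adjusted p = 0.400), 3.86 for Muc2 (0.74, adjusted p = 0.225) and 2.89 for Fcgbp (0.56, adjusted p = 0.230). The values for Agr2 (1.90, standard error 0.78) and Spink4 (1.82, 0.65) were lower, and those for Tff3 (1.0, 0.62) and Spdef (0.45, 0.71) were lowest. All 4 scopolamine libraries also lay above both 1000 pg sham libraries for 10 of 12 enterocyte and 6 of 12 enteroendocrine markers. The same held for 5 of 8 lymphocyte and leukocyte, 3 of 7 Paneth, 0 of 12 tuft and 0 of 8 stem and cycling markers.

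Whether the goblet gene differences in the 1000 pg libraries passed the threshold turned on the test. With the filter, edgeR called 0 of the 8 goblet genes and 9 of 13869 genes, or 0.0649%, in the 1000 pg libraries. At an unadjusted p under 0.05, 6 of the 8 were higher with scopolamine (Muc2, Clca1, Fcgbp, Zg16, Agr2 and Spink4), against 6.04% of all genes. DESeq2 called 5 of the 9 goblet genes, all higher: Muc2 (adjusted p = 9.96e-08), Fcgbp (1.82e-06), Zg16 (0.000214), Clca1 (0.00580) and Spink4 (0.0638), against 3.65% of all genes called higher. Without a filter, edgeR called 4 of the 9: Muc2 (adjusted p = 0.0138), Fcgbp (0.0156), Zg16 (0.0182) and Clca1 (0.0653), all higher, against 0.463% of all genes called higher. The DESeq2 fit and the fit without a filter were chosen after the counts were seen, and both rest on the same 6 libraries, in which letter and treatment nearly coincide. An exact two-sided permutation test of 4 against 2 gave p = 0.133 for each of Muc2, Clca1, Fcgbp and Zg16. That is the smallest p this test can give, so it cannot go below the thresholds used here.

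**Figure D2:**
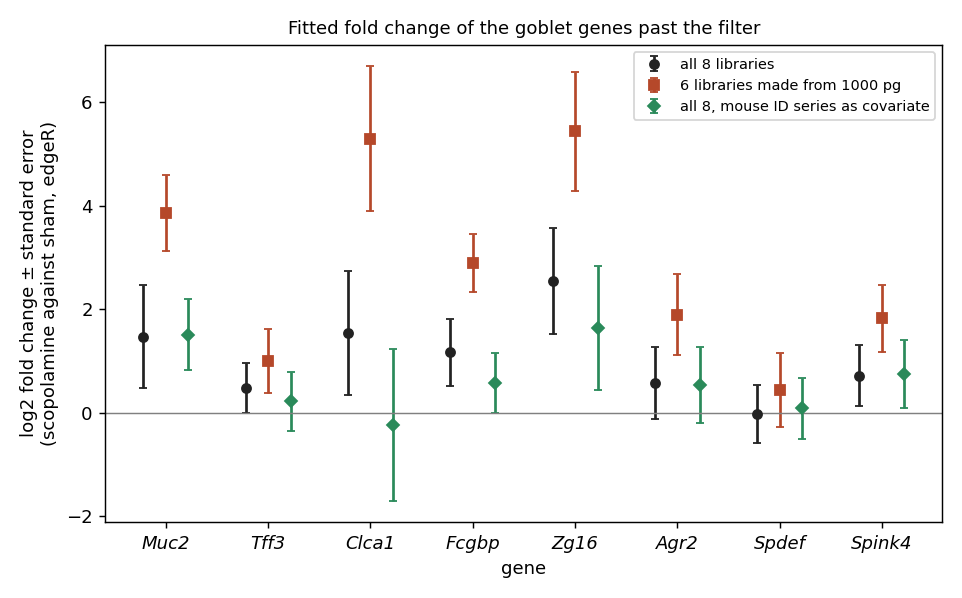
Fitted log2 fold change, scopolamine against sham (y axis, edgeR, bars are standard errors), of the 8 goblet genes past the filter (x axis). Black circles use all 8 libraries, red squares the 6 libraries made from 1000 pg and green diamonds all 8 with the mouse ID letter as a covariate. The red squares lie above the other symbols for each gene, and Clca1 falls from 5.29 in the 1000 pg libraries to -0.23 with the ID letter in the fit.

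With the mouse ID letter as a covariate, the fitted change was smaller than over all 8 libraries for 5 of the 8 genes and larger for Muc2, Spink4 and Spdef. In that fit, no goblet gene was at an unadjusted p under 0.05, and the log2 fold change was 1.63 for Zg16 (standard error 1.19), 1.51 for Muc2 (0.68), 0.57 for Fcgbp (0.58) and -0.23 for Clca1 (1.46). Among M mice, the mean Muc2 level was 89.5 CPM with scopolamine (3 libraries) and 99.2 CPM in the 1 sham library. Among N mice, it was 48.0 CPM in the 1 scopolamine library and 5.23 CPM in sham (3 libraries). Agr2 split the same way, at 124 and 187 CPM among M mice and at 224 and 71.1 CPM among N mice. The mean of Zg16 was higher with scopolamine within both letters, at 745 against 174 CPM and at 181 against 80.3 CPM, but the libraries overlapped: scopolamine replicate 3 (144 CPM) lay below the M sham library, and the N scopolamine library lay below sham replicate 3 (214 CPM). The M sham library is also a 200 pg library, so the letter and the input cannot be told apart there.

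The 9 genes did not rise and fall as 1 unit. Over the 8 libraries, the Pearson correlation of log2 CPM was above 0 in all 28 pairs of the 8 genes, with a median of 0.53, and was over 0.8 in 4 pairs. Of these, 3 joined Clca1, Fcgbp and Zg16: it was 0.92 for Clca1 and Zg16 (Spearman 0.88), 0.91 for Fcgbp and Zg16 (0.79) and 0.86 for Clca1 and Fcgbp (0.95). The other was Agr2 with Spink4, at 0.83 (0.76). Spdef was below 0.6 with every other gene, and it was 0.05 with Clca1 and 0.09 with Muc2. The points share mouse, input and depth within a library, so these are descriptions of 8 libraries.

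The make-up of the goblet signal differed in the same way, read as shares of counts that are not corrected for length and are compared across libraries within a gene. Tff3 was 54.9% and 60.4% of the summed CPM in sham replicates 2 and 4, and between 15.5% and 33.3% in the other 6 libraries. Zg16 was 45.5% in scopolamine replicate 1, between 12.6% and 22.5% in the other scopolamine libraries and the 200 pg sham libraries, and 2.99% and 4.78% in sham replicates 2 and 4. The 2 libraries with the least goblet signal thus had the highest Tff3 share and the lowest Zg16 share. Agr2 was 0.936% in scopolamine replicate 1 and 20.1% in scopolamine replicate 4, and the ratio of Zg16 to Agr2 ran from 0.296 in sham replicate 2 to 48.7 in scopolamine replicate 1. Fcgbp had its highest share in scopolamine replicate 3, at 34.4%.

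**Figure D3:**
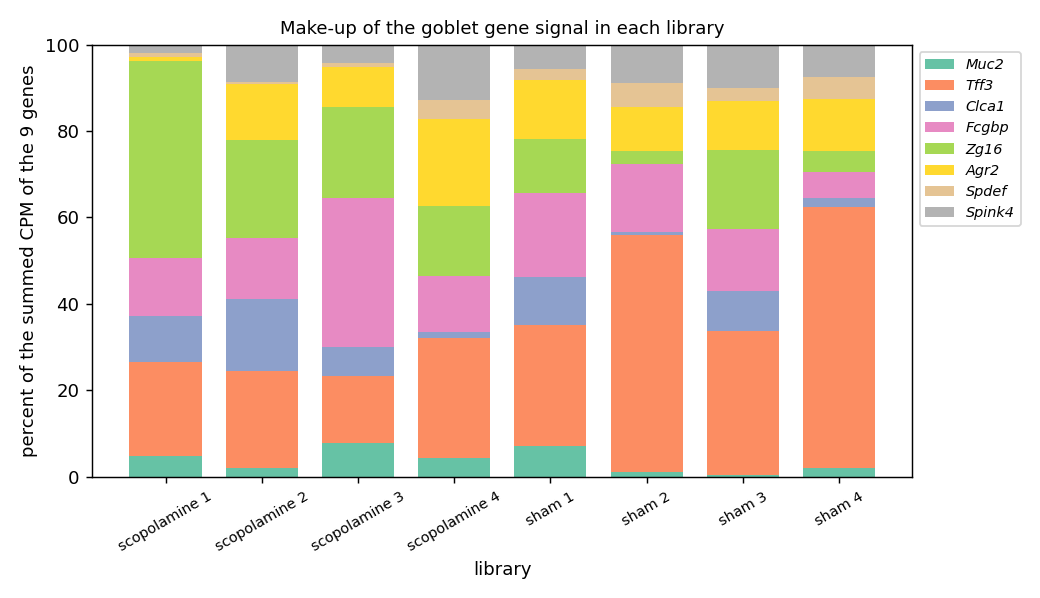
Share of each goblet gene (y axis, percent of the summed CPM of the 9 genes) in each of the 8 libraries (x axis). Retnlb, at 0.247% or less, is not drawn. Tff3 takes 54.9% and 60.4% in sham replicates 2 and 4, and Zg16 takes 45.5% in scopolamine replicate 1.

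To set levels of different genes side by side, they were taken per length, as CPM per kilobase of the longest GENCODE M21 transcript, averaged over the 8 libraries. Tff3 was highest at 721 CPM per kb, followed by Zg16 at 489, Spink4 at 212 and Agr2 at 137. Clca1 was at 36.6, Fcgbp at 26.3, Muc2 at 18.4, Spdef at 13.8 and Retnlb at 0.702 CPM per kb. The order differed between the groups: in sham, Spink4 (160 CPM per kb) was above Zg16 (143) and Spdef (13.9) above Muc2 (9.81), and with scopolamine Zg16 (835) was close to Tff3 (841). In both groups Tff3, Zg16, Spink4 and Agr2 were above Clca1, Fcgbp and Muc2. The Muc2 value is uncertain, because its longest annotated transcript has 2926 bases while its exons together cover 7127. Each of the 8 genes past the filter varied at least 6.54-fold between its lowest and its highest library, which was more than any gap between neighbors in this order except that between Spdef and Retnlb.

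Other genes of the goblet program were examined as lists that hold none of the 9. Among 9 goblet transcription factors, 7 passed the filter, 3 were higher and 4 lower, and none had an unadjusted p under 0.05 in edgeR. The median log2 fold change was -0.01, as it was over all genes. In these lists, higher and lower give the sign of the fitted fold change. Foxa1, singled out after its values were seen, lay between 23.2 and 28.3 CPM with scopolamine and between 16.5 and 22.9 CPM in sham. Its groups did not overlap (exact permutation p = 0.0286, the smallest possible). Every scopolamine library lay above every sham library for 1.92% of all genes, and the share in the other direction was not counted. Scopolamine libraries held Xbp1, the regulator of secretory protein folding, at 320 ± 49.9 CPM (SD, n = 4) and sham libraries at 273 ± 21.9 (SD, n = 4), which gave a log2 fold change of 0.23 (standard error 0.15, edgeR adjusted p = 0.839). Klf4 was at 72.1 ± 22.1 and 80.3 ± 11.9 CPM, and Foxa3 at 24.1 ± 6.12 and 28.3 ± 11.9 CPM. Gfi1, which acts downstream of Atoh1 in secretory cells, did not pass the filter. It had 65 and 80 counts in scopolamine replicates 2 and 4, 8 in sham replicate 2, 1 in scopolamine replicate 1 and 0 elsewhere.

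Mucin glycosylation enzymes, which attach and extend the sugar chains of mucins, were listed as 20 genes, of which 19 passed the filter, 14 higher and 5 lower, none at an unadjusted p under 0.05. The median log2 fold change was 0.27. Tsta3, which makes a nucleotide sugar, was at 217 ± 15 CPM with scopolamine and 239 ± 21.4 CPM in sham (SD, n = 4). The sialyltransferase gene St3gal4 was at 198 ± 159 CPM with scopolamine and 72.2 ± 77.3 in sham (log2 fold change 1.46, standard error 0.76, edgeR adjusted p = 0.812).

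Of 23 other goblet genes, 21 passed the filter, with 17 higher, 4 lower and a median of 0.57 on the log2 scale. At an unadjusted p under 0.05, 2 were higher and 1 lower, against 3.33% higher and 2.66% lower of all genes. For 7 of the 21, every scopolamine library lay above both 1000 pg sham libraries, against 9.07% of all genes. Oit1 was at 8.96, 53.1, 21.02 and 65.4 CPM with scopolamine and at 9.73, 5.32, 11.1 and 3.73 CPM in sham (log2 fold change 2.31, standard error 0.61, edgeR adjusted p = 0.812, DESeq2 adjusted p = 0.0272). Scopolamine replicate 1 lay within the sham range for Oit1, and the other scopolamine libraries lay above it. Nlrp6, an inflammasome sensor linked to mucus release, was at 13.5, 111, 40.0 and 113 CPM with scopolamine and at 43.8, 12.4, 10.9 and 10.02 CPM in sham (log2 fold change 1.85, standard error 0.68, edgeR adjusted p = 0.812).

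Smim6 was the gene of that list lower with scopolamine at an unadjusted p under 0.05, at 143 ± 22.9 CPM against 217 ± 78.7 (SD, n = 4), a log2 fold change of -0.60 (standard error 0.26, edgeR adjusted p = 0.812). Capn9, a calpain of the digestive tract, did not pass the filter, and DESeq2 gave it an adjusted p of 0.0366. It had 75, 127, 3 and 96 counts with scopolamine and 7, 0, 0 and 0 in sham. Both remaining genes picked for their level, Txndc5 (95.6 ± 41.0 and 55.2 ± 32.2 CPM) and Tmed3 (70.1 ± 12.8 and 66.6 ± 18.1 CPM), act in protein folding and transport in the secretory pathway.

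Mucins other than Muc2 were listed as 13 genes, of which 11 were in the table, 7 had a count and 5 passed the filter. Muc13, a transmembrane mucin, was at 866 ± 100 and 790 ± 93.2 CPM in the scopolamine and sham groups (SD, n = 4), and its 8 libraries ran only from 655 to 961 CPM, a log2 fold change of 0.13 (standard error 0.14, edgeR adjusted p = 0.906). Muc4, another transmembrane mucin, was at 3.41, 9.36, 2.47 and 9.46 CPM with scopolamine and at 0.303, 0.389, 0.446 and 3.13 CPM in sham (log2 fold change 2.53, standard error 0.98, edgeR adjusted p = 0.812). Muc3, at 11.4 ± 7.96 and 8.35 ± 6.53 CPM, may share reads with Muc3a. Muc6, a gastric gel-forming mucin, had 28, 1, 0 and 15 counts in sham replicates 1 to 4 and 0 in each scopolamine library. The gel-forming Muc5ac and Muc5b had no count in any library.

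Markers of other cell types moved with the goblet genes in part. All 12 enterocyte markers passed the filter and were higher with scopolamine, 4 of them at an unadjusted p under 0.05 (3.33% of all genes). Their median was 1.48 on the log2 scale. Of all genes past the filter, 6305 of 12849 were higher. Every scopolamine library lay above both 1000 pg sham libraries for 10 of the 12, against 9.07% of all genes. Their sum ran from 3271 to 6681 CPM with scopolamine, and it was 6515 CPM in sham replicate 1 and between 2589 and 2641 in the other sham libraries. The sugar transporter gene Slc5a1 was at 56.3, 187, 134 and 142 CPM with scopolamine and at 39.9, 8.46, 34.5 and 8.14 in sham, so its groups did not overlap (log2 fold change 2.51, standard error 0.57, edgeR adjusted p = 0.812, DESeq2 adjusted p = 0.00459). Anpep (104 ± 59.4 and 19.1 ± 18.0 CPM), Apoa4 (94.3 ± 29.2 and 24.9 ± 29.7) and Mttp (232 ± 123 and 106 ± 42.9) were the other 3. Fabp1, the enterocyte marker of highest CPM, was at 3409 ± 1217 and 3073 ± 1467 CPM, and Apoa1 at 471 ± 366 and 136 ± 173 CPM.

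Enteroendocrine markers summed to between 474 and 1116 CPM with scopolamine and between 179 and 1119 CPM in sham, and 10 of 12 were higher (median log2 fold change 1.13), none at an unadjusted p under 0.05. Sham replicate 3, made from 200 pg, held the highest of these sums, and the ratio of the scopolamine to the sham mean was 1.52 over all libraries and 3.06 against the 1000 pg sham libraries. The same ratios were 1.36 and 1.89 for the enterocyte sum, 1.14 and 1.91 for the lymphocyte and leukocyte sum, 5.14 and 7.53 for the Paneth sum, and 0.918 and 0.947 for the tuft sum. Chgb was at 189 ± 136 and 44.4 ± 71.3 CPM, Cck at 102 ± 69.2 and 68.0 ± 128, and Sct at 222 ± 30.3 and 243 ± 60.0 CPM. Paneth markers summed to 1484 CPM in scopolamine replicate 4 and to between 40.8 and 152 CPM in the other 7 libraries. Itln1 was at 416 CPM and Lyz1 at 487 CPM in that library, whose Muc2 level (48.0 CPM) lay between those of scopolamine replicates 2 and 3. All 7 Paneth genes past the filter were higher, with a median of 3.28, and 2 (Itln1 and Defa17) had an unadjusted p under 0.05, against 3.33% of all genes. These values rested on scopolamine replicate 4: without it the ratio of the summed means was 1.15 in place of 5.14, and the median difference in mean log2 CPM was 0.34 in place of 1.59. Defa17 and Defa24 belong to a family of near-identical genes and their counts are uncertain. The Paneth list also holds Nupr1, which did not pass the filter and had 64, 34, 3 and 14 counts with scopolamine and 1, 0, 3 and 4 in sham. DESeq2 gave Nupr1 an adjusted p of 0.0348. In CPM its groups did not overlap (exact permutation p = 0.0286), but scopolamine replicate 3 was at the floor of 3 counts.

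Tuft cell markers were close to level. Of 12 markers, 3 were higher and 9 lower, none at an unadjusted p under 0.05, with a median log2 fold change of -0.09. Dclk1 was at 4360 ± 1008 and 4870 ± 687 CPM in the scopolamine and sham groups (SD, n = 4), and Lrmp was at 2380 ± 624 and 3001 ± 294 CPM. Lymphocyte and leukocyte markers summed to between 51.9 and 183 CPM with scopolamine and between 62.8 and 231 CPM in sham, 6 of 8 higher with a median of 0.25. Ptprc was at 83.3 ± 40.5 and 79.1 ± 29.3 CPM, Gzma at 20.01 ± 20.3 and 17.2 ± 33.1 CPM and Lyz2 at 8.96 ± 4.00 and 5.22 ± 1.11 CPM. Stem and cycling markers summed to between 162 and 309 CPM and between 211 and 305 CPM, 4 of 8 higher, with 1, Mki67, at an unadjusted p under 0.05 (12.8 ± 8.69 and 2.21 ± 1.94 CPM), against 3.33% of all genes. The stem cell gene Lgr5 was at 38.8 ± 9.59 and 55.2 ± 10.1 CPM, Ascl2 at 48.6 ± 20.8 and 55.1 ± 9.78 CPM and Pcna at 45.9 ± 15.3 and 44.1 ± 9.79 CPM. Stromal markers summed to between 9.93 and 14.5 CPM in the 8 libraries, most of it Pecam1 (11.6 ± 2.02 and 12.7 ± 0.688 CPM), with Col1a1, Col3a1 and Dcn at 0.506 CPM or less in both groups. The part that other cell types, input or depth had in the goblet gene values was not tested.

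**Figure D4:**
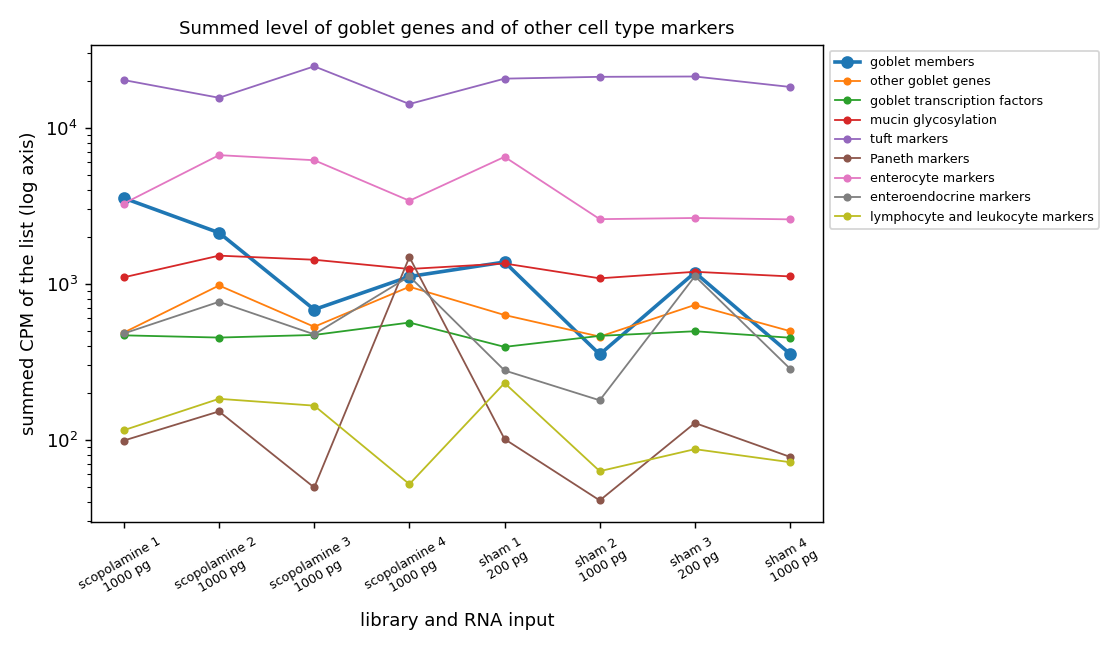
Summed CPM (y axis, log scale) of the 9 goblet genes (thick line) and of 8 other gene lists in each library (x axis, with RNA input). Tuft markers stay between 14213 and 24794 CPM, the goblet genes run from 353 to 3544 CPM, and Paneth markers reach 1484 CPM in scopolamine replicate 4. Lines join libraries only to guide the eye.

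The Pearson correlation of each gene's log2 CPM with the mean of the 9 genes over the 8 libraries had a median of 0.59 for the 12 enterocyte markers, 0.55 for the 12 enteroendocrine markers, 0.53 for the 8 lymphocyte and leukocyte markers, 0.45 for the 7 Paneth markers and 0.31 for the 21 other goblet genes past the filter. The median was -0.22 for the 7 goblet transcription factors and -0.22 for the tuft markers, and -0.03 over the 12841 other genes past the filter. Without sham replicates 2 and 4, the libraries farthest from the median, these medians were -0.12 for the enterocyte, 0.01 for the enteroendocrine, -0.07 for the lymphocyte and leukocyte and 0.30 for the Paneth markers, and 0.09 for the other goblet genes. The 5 genes most alike were Lmbrd2 (0.96), Sprr2a1 (0.94), Gm10163 (0.94), Gm10240 (0.94) and Gm13370 (0.94). Gm10240 and Gm13370 had the same value in every library, from 8.04 to 18.7 CPM in 6 libraries and 0 in sham replicates 2 and 4, so their reads were not separable. Without those 2 libraries, the correlation was 0.87 for Lmbrd2, 0.84 for Gm10163, 0.68 for Gm10240 and Gm13370 and 0.62 for Sprr2a1. The mean of the 9 genes includes Retnlb, which did not pass the filter, so that gene enters each correlation given here. Its log2 CPM was 1.49 in scopolamine replicate 4, 0.25 in sham replicate 3 and between -3.77 and -3.02 in the others. Scopolamine replicate 4 was also the library with the highest Paneth sum.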

How the data were processed

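Bulk RNA sequencing was analyzed for 4 scopolamine and 4 sham mice, grouped by the treatment label, 1 library per mouse. The authors amplified RNA with the Clontech Ultra Low v4 kit, prepared Nextera XT libraries, assigned reads to the transcriptome of GRCm38 with kallisto 0.44.0, summed them per gene with tximport and deposited estimated counts without normalization (bcl2fastq 2.20 and kallisto as in the submitters' processing notes). The annotation release and use of strand are not given in the sources used here. The estimated counts were whole numbers, and rounding changed 0 values. RNA input, amplification cycles and mouse ID came from the study's source data.

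Counts were tested with edgeR 4.0.16 (quasi-likelihood, TMM, filterByExpr, adjusted p under 0.1) in R 4.3.3 over all genes, with DESeq2 1.42.0 as the alternative, and log2 CPM used a prior count of 2. Retnlb, Gfi1, Capn9, Muc6 and Nupr1, which the filter removes, were read as counts or from the fit without a filter. Single genes were compared by exact permutation over 70 assignments, two-sided. Alternatives were other scalings, an adjusted p under 0.05, no filter, a minimum of 10 counts per library, 1000 pg libraries only, cycles or mouse ID letter as a covariate, thinning to 14343362 counts, and leaving out each replicate. Both tools were tested on simulated data.

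The 9 genes and the lists were chosen with earlier results of these data known. Named in other lists were genes at an unadjusted p under 0.05 and the 3 of highest mean CPM, plus the 5 genes most correlated with the mean of the 9. Some genes this rule picks are not reported here. Of 35199 symbols, 34887 were found in GENCODE M21. Counts of any 2 libraries of a group differed beyond sampling noise (chi-square of at least 68.1 per degree of freedom). Replicate numbers are names only and pair no mice. Intervals for counts of 0 cover counting error only.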

Additional observations from a re-analysis of the deposited data

Results flagged for a closer look

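Dixon's ratio for 4 samples was taken on CPM, not on log2 CPM, in 17 groups of 4 libraries for the 9 goblet genes. Retnlb in sham, where 1 library was above 0, was left out. In 3 of the 17 groups, 1 library stood apart from its group. For normally distributed values, chance alone gives this in about 1 group in 20. Whether CPM follows that distribution was not tested, so the chance rate for these groups is not known. Muc2 was 174 CPM in scopolamine replicate 1, with the other 3 between 41.3 and 53.6, and 99.2 CPM in sham replicate 1, with the other 3 between 3.62 and 7.07. Retnlb was 2.74 CPM in scopolamine replicate 4, with the other 3 at 0.0501 or below.

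Of 24 groups tested for sums over lists, the 9 genes included, 5 had a library set apart in the same way. In scopolamine replicate 4, the goblet transcription factors summed to 564 CPM (the other 3 between 452 and 470) and the Paneth markers to 1484 CPM (between 49.4 and 152). In sham replicate 1, the enterocyte markers summed to 6515 CPM (between 2589 and 2641) and the lymphocyte and leukocyte markers to 231 CPM (between 62.8 and 87.0). In sham replicate 3, the enteroendocrine markers summed to 1119 CPM (between 179 and 285).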

How the results depend on the processing

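The count of goblet genes called by edgeR stayed at 0 under every alternative with all 8 libraries or with 1 replicate left out, and DESeq2 also called 0. Genes called across the table, 0 at first, were 193 by DESeq2, 9 in the 1000 pg libraries, 5 with amplification cycles as a covariate and 0 to 2 with 1 replicate left out. The median log2 fold change of the 8 goblet genes was 0.94, 2.39 in the 1000 pg libraries, 2.42 with cycles as a covariate and 0.55 with the mouse ID letter, and it ran from 0.64 to 1.44 with 1 replicate left out. Clca1 reversed to -0.23 (standard error 1.46) with the mouse ID letter, while its mean log2 CPM was higher with scopolamine by 0.25 within M and 0.42 within N mice. Within N mice the mean CPM of Clca1 was lower with scopolamine, at 17.2 against 40.2. Spdef, at -0.03, reversed to 0.45 in the 1000 pg libraries, 0.47 with cycles and 0.084 with the ID letter, and it ran from -0.52 to 0.28 with 1 replicate left out. The cause was not tested. In the 1000 pg libraries, DESeq2 called 3 to 7 goblet genes with 1 library left out (3 without sham replicate 2), where 2.56% to 5.73% of all genes were called higher, and edgeR had 4 to 7 at an unadjusted p under 0.05, where 2.95% to 7.49% of all genes were higher. There, edgeR called 3 goblet genes without scopolamine replicate 1 (0.843% of all genes called higher), 1 without scopolamine replicate 4 (0.125%) and 0 without any other. Leaving out sham replicate 2 or 4 there leaves 1 sham library, which is assumed to vary like the scopolamine libraries. The cycles covariate takes up both 200 pg libraries, so it repeats the comparison with the 1000 pg sham libraries and is no separate check (6 of the 8 at an unadjusted p under 0.05, against 4.25% of all genes). The difference in log2 summed CPM, 1.203, was 1.24 after thinning, 2.13 in the 1000 pg libraries and 0.80 to 1.60 with 1 replicate left out. No paired analysis was possible because the labels give no number or animal shared between the groups. The lowest count of any goblet gene past the filter was 103 (Clca1 in sham replicate 2).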
